A study of Mus musculus with 6 samples.

Results

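The 7 genes Rax, Vim, Nes, Gpr50, Col23a1, Col25a1 and Fndc3c1 are used as markers of tanycytes and were followed in the hypothalamus of obese mice given GSK-J4 or vehicle. Tanycytes line the floor and lower walls of the third ventricle in the hypothalamus and send long processes into the arcuate nucleus and the median eminence. They are known for carrying leptin and other signals between blood, cerebrospinal fluid and neurons, for activating thyroid hormone and for keeping features of neural progenitors. Rax encodes a homeobox transcription factor of the developing and adult ventral hypothalamus, Vim and Nes encode the intermediate filament proteins vimentin and nestin, Gpr50 encodes an orphan receptor related to the melatonin receptors, Col23a1 and Col25a1 encode transmembrane collagens, and Fndc3c1 encodes a protein with fibronectin type III domains. All probes that carry 1 of these 7 symbols as their gene name in the array files were taken, which gave 12 of the 56605 probes on the array and 7 of its 37074 gene names. A probe was kept for testing where the files flag it as well above background on each of the 3 arrays of either group. This held for 34444 probes in all and for 7 of the 12 tanycyte-gene probes, which stand for 5 of the 7 genes.

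The arrays, 6 Agilent SurePrint G3 in 1 colour, each measured the hypothalamic RNA of a male C57BL/6J DIO mouse. DIO mice are obese from a high-fat diet of 60 kcal% fat, here fed for 16 weeks from 6 weeks of age, and both groups carried this diet. Of the 6 arrays, 3 are labelled GSK-J4, an inhibitor of the Kdm6 histone demethylases given at 30 mg kg−1, and 3 are labelled vehicle. The comparison asks which hypothalamic transcripts differed after inhibition of these demethylases. The tissue was collected at ZT 6 h, that is 6 h after lights on, and the deposited description places it 4 d after exposure, whereas the animal methods describe a course of 21 d. No genotype other than C57BL/6J is given for either group, and lean mice were not part of these arrays. The whole hypothalamus was used, so that tanycytes are a small part of the cells sampled. The vehicle arrays share slide 1 and the GSK-J4 arrays share slide 2, each slide with its own scan, so that treatment and slide cannot be told apart anywhere in these data. The GSK-J4 arrays were dimmer, with a 75th percentile of raw signal of 406 to 461 against 787 to 916, and 57.7% to 58.7% of the probes against 62.8% to 63.6% were well above background. Normalized values of 2 arrays of the same group correlated between 0.978 and 0.995 across kept probes. Differences also followed the base composition of the probes, with more rises among probes rich in G and C, so each probe is set beside all kept probes of like composition below.

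The values of these genes rest on probes of 60 bases. The sequences of 6 of the 7 kept probes are shown, all but that of Rax, because composition differs between the genes and the place on the chromosome differs between probes of the same gene. Each is written 5′ to 3′ in lower case with G and C in capitals, and coordinates are on the mm9 build of the array design. The annotation of exons and UTRs was not used here.
Vim A_51_P392687, chr2:13504232-13504291 on the + strand, 40% GC: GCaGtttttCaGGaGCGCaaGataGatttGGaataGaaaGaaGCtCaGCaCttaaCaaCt
Nes A_51_P452323, chr3:87784308-87784367 on the + strand, 46.7% GC: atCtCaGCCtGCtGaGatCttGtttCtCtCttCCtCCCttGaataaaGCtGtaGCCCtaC
Col23a1 A_52_P441036, chr11:51396885-51396944 on the + strand, 55% GC: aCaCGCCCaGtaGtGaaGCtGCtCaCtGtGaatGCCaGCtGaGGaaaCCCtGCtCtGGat
Col23a1 A_55_P2086978, chr11:51394105-51394164 on the + strand, 55% GC: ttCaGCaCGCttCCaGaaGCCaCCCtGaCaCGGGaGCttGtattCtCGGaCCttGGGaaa
Col25a1 A_55_P2160750, chr3:129885684-129885743 on the + strand, 45% GC: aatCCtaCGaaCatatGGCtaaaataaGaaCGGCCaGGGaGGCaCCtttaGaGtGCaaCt
Col25a1 A_55_P2727609, chr3:130255844-130262803 on the + strand, 45% GC: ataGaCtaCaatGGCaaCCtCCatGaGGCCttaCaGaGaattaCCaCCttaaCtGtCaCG
The 2 Col23a1 probes lie 2.78 kb apart and have the same GC content. The 2 Col25a1 probes also share their GC content but lie 370 kb apart, and the second of them covers 6960 bases of the genome with its 60 bases, so that it crosses at least 1 intron.

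Every array measured the same 6 tanycyte-gene probes well above background, and at an adjusted p of at most 0.05 limma called 0 of these 6 higher and 0 lower with GSK-J4. At an unadjusted p of at most 0.05, 1 of these was higher, a Col23a1 probe, and 2 were lower, Vim and 1 Col25a1 probe. Over all 34444 kept probes limma called 8.39% higher and 8.42% lower after adjustment, and 19.5% and 17% at the unadjusted threshold. The seventh kept probe, that of Rax, was the 1 probe called higher, but it was kept only through the GSK-J4 arrays, where it was higher, so that its call is given as a description. The arrays of both groups did not overlap for 3 probes that were higher, Rax included, and for 2 that were lower, where 24.5% and 21.2% of all kept probes did not overlap in these directions. With 3 arrays in each group, 0.1 is the smallest two-sided p of an exact permutation test, and it gave 0.1 for each of these 5 probes. The median difference of all kept probes was 0.02 on the log2 scale, and the differences of the 7 probes ran from −0.74 to 3.40, the upper end of which comes from a single array. In RNA of whole tissue, a change in the number of cells of a type and a change in RNA per cell cannot be told apart.

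**Figure D1:**
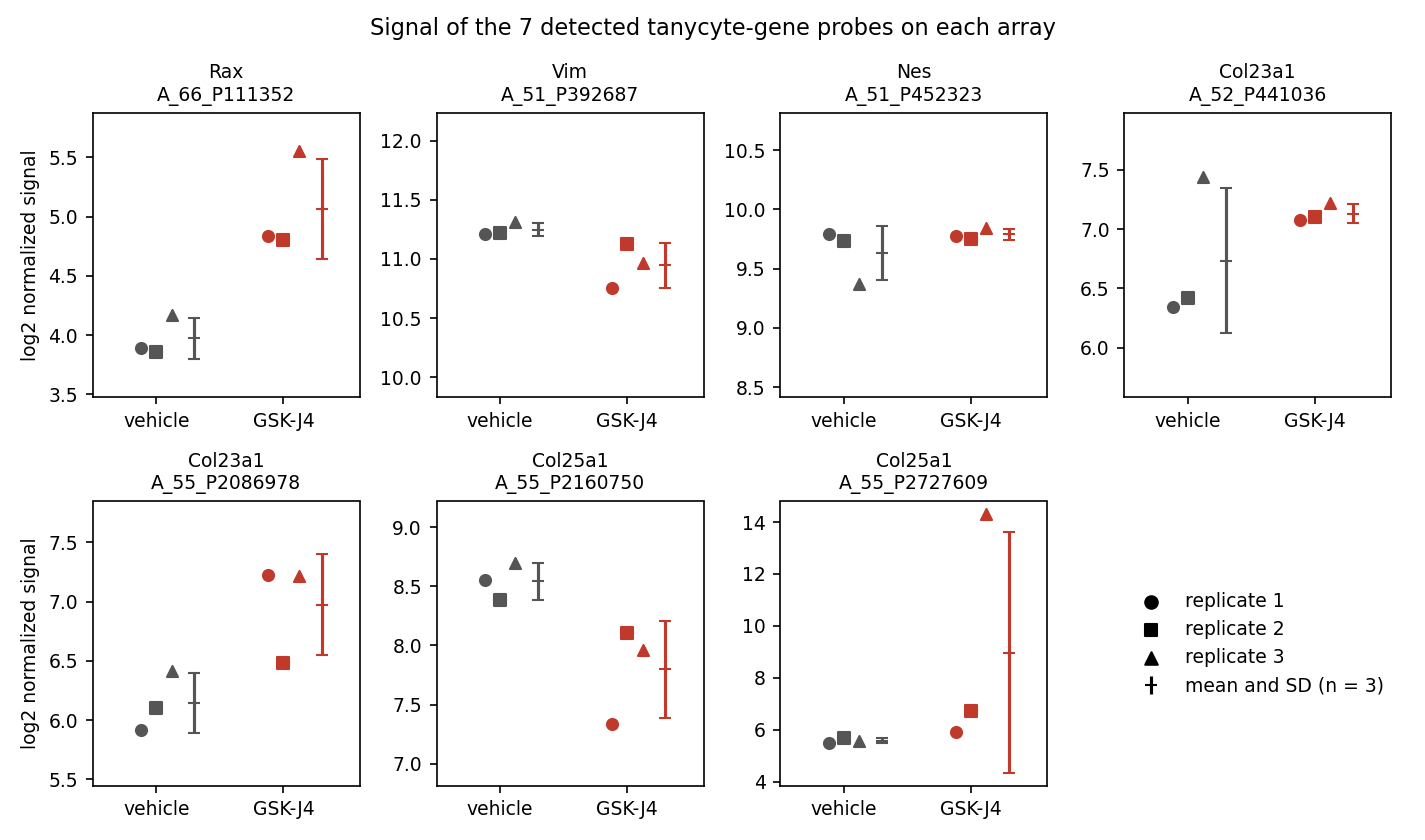
Log2 normalized signal of the 7 kept tanycyte-gene probes on the 3 vehicle arrays (grey) and the 3 GSK-J4 arrays (red), with the mean and SD of each group (n = 3) beside the points; each panel has its own vertical scale. The Rax arrays do not overlap (at most 4.17 against at least 4.80), the Nes arrays do, and the value of 14.29 on GSK-J4 replicate 3 sets the mean of the last Col25a1 probe.

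Rax read higher on the GSK-J4 arrays on its detected probe. The probe A_66_P111352 (chr18:66094331-66094390 on the − strand) read 3.89, 3.86 and 4.17 log2 units on the vehicle arrays and 4.84, 4.80 and 5.55 on the GSK-J4 arrays. All 3 GSK-J4 arrays were above all 3 vehicle arrays, and GSK-J4 replicate 3 was the highest. The difference was 1.09 log2 units (SE 0.23, 95% interval 0.53 to 1.65), or 2.13-fold, with a limma adjusted p of 0.0323, and without the filter on dim probes the adjusted p was 0.0592. Of the 1593 kept probes within 0.25 log2 units of its mean level, 5.46% were called higher, with a median difference of −0.09. Of the 11528 kept probes within 1 base of its GC content of 36.7%, 2.35% were called higher, with a median difference of −0.12. Rax passed the filter through the GSK-J4 arrays only, and among dim probes the filter also shapes the set of like level. Neither share therefore tells how unusual the Rax difference was.

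The Rax probe lay near the detection floor on 5 of the 6 arrays. Its flag was set on 2 of the 3 vehicle arrays and on each of the GSK-J4 arrays, and it was kept for the latter only, so that neither the adjusted p nor the exact fold is free of that choice. The lowest normalized signal of any probe well above background was 3.79 to 3.90 on the vehicle arrays and 4.39 to 4.64 on the GSK-J4 arrays, so this floor was itself higher by 0.65 log2 units in the GSK-J4 group. Relative to the floor of its own array, Rax stood at 0.10, −0.04 and 0.30 log2 units on the vehicle arrays and at 0.35, 0.17 and 1.17 on the GSK-J4 arrays, and the groups then overlapped. The signal of the spot before normalization was 20.7, 22.2 and 24.7 on the vehicle arrays and 20.2, 20.5 and 30.2 on the GSK-J4 arrays, which also overlapped. The part of the array brightness in the difference was not tested. With normexp background correction the difference was 0.35 log2 units at an adjusted p of 0.0698. The call was lost without vehicle replicate 1 (1.05, adjusted p = 0.0947), without vehicle replicate 2 (1.03, adjusted p = 0.106), without vehicle replicate 3 (1.19, adjusted p = 0.0855) and without GSK-J4 replicate 1 (1.21, adjusted p = 0.0575). It was kept without GSK-J4 replicate 3, at 0.85 log2 units and an adjusted p of 0.0308. Losses without a vehicle array were general, here and for the genes below. Without any 1 of these arrays limma called at most 2 of all kept probes higher and at most 12 lower. The other Rax probe, A_52_P3153, lies 6.04 kb away and was nowhere well above background, with values of 1.87 to 1.92.

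Vim and Nes, the filament genes shared by tanycytes with astrocytes, endothelium and progenitors, did not pass the test in either direction. Vim read 11.21, 11.22 and 11.31 log2 units on the vehicle arrays and 10.75, 11.13 and 10.96 on the GSK-J4 arrays. Every GSK-J4 array was below every vehicle array, and the spread was wider among the GSK-J4 arrays (SD 0.19 against 0.06, n = 3). The difference was −0.30 log2 units (SE 0.11, 95% interval −0.58 to −0.02) with a limma adjusted p of 0.117, beside a median of −0.02 for kept probes of like GC content.

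Nes read 9.79, 9.74 and 9.37 log2 units on the vehicle arrays and 9.78, 9.75 and 9.84 on the GSK-J4 arrays. Vehicle replicate 3 was low and the other 5 arrays lay within a narrow range, so that the groups overlapped. The difference was 0.16 log2 units (95% interval −0.16 to 0.47, limma adjusted p = 0.41), and it was 0.005 once the trend with GC content was removed within each array. This interval leaves room for a rise of up to 0.47 log2 units and for a fall of up to 0.16. Of the other intermediate filament and lamin genes, 10 of 11 had a kept probe, 2 rose and 0 fell. Over all kept probes 8.39% were called higher and 8.42% lower. The median difference of the list was 0.17, beside 0.02 over all kept probes, with 8 positive and 2 negative differences from −0.52 to 1.66. The 2 that rose were Lmnb1, which encodes lamin B1 of the nuclear lamina, by 0.71 log2 units (SE 0.14, adjusted p = 0.0304), and Ina, which encodes the neuronal filament protein internexin, by 0.37 (SE 0.07, adjusted p = 0.025). Both calls were lost without any 1 of the vehicle arrays and without GSK-J4 replicate 1, and that of Lmnb1 also without GSK-J4 replicate 3, with adjusted p-values of 0.052 to 0.0989. Gfap, the filament of astrocytes and of some tanycytes, differed by −0.12 (adjusted p = 0.601), and Synm, which encodes synemin, by 0.00 (adjusted p = 0.998).

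**Figure D2:**
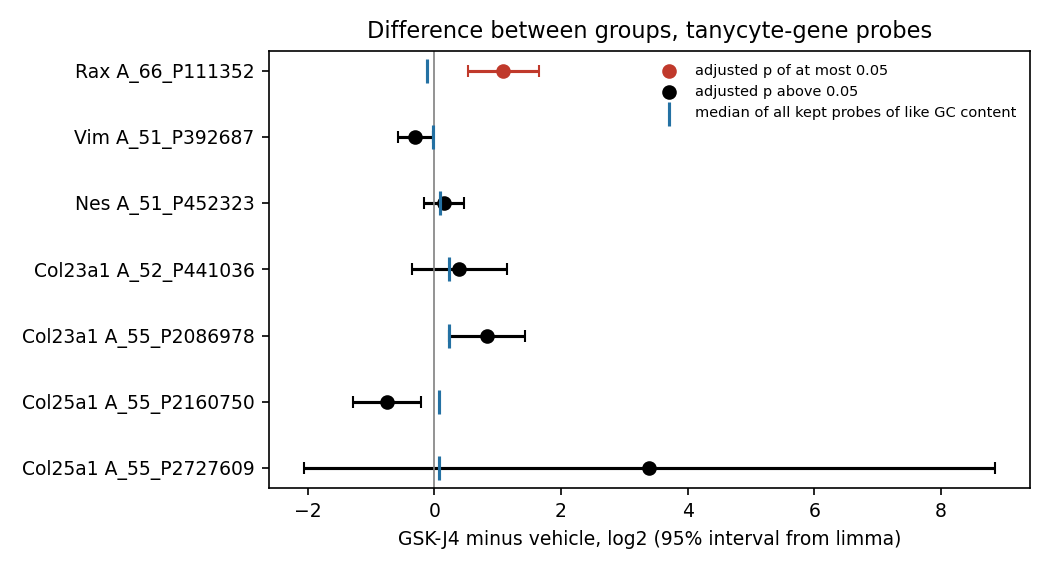
Difference between the group means (GSK-J4 minus vehicle, log2) of the 7 kept tanycyte-gene probes, with 95% intervals from limma; red marks an adjusted p of at most 0.05 and the blue bars give the median difference of all kept probes within 1 base of the same GC content. Rax alone is red, and its probe was kept through the GSK-J4 arrays only; the interval of the Col25a1 probe A_55_P2727609 runs from −2.06 to 8.86.

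Col23a1 was higher in the means of both kept probes, and neither passed the test. The probe A_55_P2086978 read 5.91, 6.11 and 6.42 log2 units on the vehicle arrays and 7.22, 6.48 and 7.22 on the GSK-J4 arrays. The groups did not overlap, although GSK-J4 replicate 2 was close to vehicle replicate 3. The difference was 0.83 log2 units (SE 0.25, 95% interval 0.23 to 1.43), with a limma adjusted p of 0.0688. Without GSK-J4 replicate 2 the difference was 1.08 and passed, at an adjusted p of 0.0295. The probe A_52_P441036, which lies 2.78 kb further along the gene, read 6.34, 6.42 and 7.44 on the vehicle arrays and 7.07, 7.10 and 7.22 on the GSK-J4 arrays. Vehicle replicate 3 was the highest of all 6 arrays here, and the groups overlapped. The difference was 0.40 log2 units (SE 0.30, 95% interval −0.35 to 1.14, adjusted p = 0.382), and without vehicle replicate 3 it was 0.75 with an adjusted p of 0.0683. Probes with the GC content of these 2 were higher in general, since the 3692 kept probes within 1 base of 55% GC had a median difference of 0.23 and 21% of them were called higher. With the GC trend removed, the difference of A_55_P2086978 was 0.56 at an adjusted p of 0.164. The third probe, A_51_P457557, covers 1547 bases of the genome and so crosses an intron, and it was nowhere well above background.

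Col25a1, the precursor of the collagen-like component of amyloid plaques, gave opposite signs on its 2 kept probes, and neither passed the test. The probe A_55_P2160750 read 8.55, 8.38 and 8.69 log2 units on the vehicle arrays and 7.33, 8.10 and 7.96 on the GSK-J4 arrays. All GSK-J4 arrays were below all vehicle arrays, with GSK-J4 replicate 1 the lowest. The difference was −0.74 log2 units (SE 0.22, 95% interval −1.28 to −0.21), that is 1.67-fold lower in the GSK-J4 mean, with a limma adjusted p of 0.0677. Kept probes of like GC content had a median difference of 0.07, and 6.12% of them were called lower. Across the alternatives its difference lay between −0.90 and −0.51, with adjusted p-values from 0.0514 to 0.218.

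The probe A_55_P2727609 of Col25a1 read 5.47, 5.68 and 5.57 log2 units on the vehicle arrays and 5.90, 6.71 and 14.29 on the GSK-J4 arrays. GSK-J4 replicate 3 stood 7.58 log2 units above the highest of the other 5 arrays, the largest such gap of any of the 34444 kept probes on any array. The difference of 3.40 log2 units (SE 2.22, 95% interval −2.06 to 8.86, adjusted p = 0.314) rests on that array, and without GSK-J4 replicate 3 it was 0.73 with an adjusted p of 0.115. The spot signal before normalization was 14933 on GSK-J4 replicate 3, against 42.1 and 76.7 on the other GSK-J4 arrays and 62.4 to 79.2 on the vehicle arrays. The spot carried no outlier flag and was not saturated. Its 44 pixels had a mean of 10606 with an SD of 3418, where the SD was 14.2 to 27.6 around means of 72.1 to 123 on the other arrays.

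Other spots next to it stood apart on the same array. Over all 56605 probes, the 3 with the largest gap on GSK-J4 replicate 3 were those of Zmiz1os1 (8.95 log2 units), Col25a1 (7.58) and Osbpl1a (6.42), and they lie within 5 rows and 2 columns of a grid of 384 rows and 164 columns. The median of the 76 spots within 4 rows and columns was 0.19 log2 units above the other GSK-J4 arrays. Beyond these rows, in the column of Zmiz1os1, Rap1a and Pard3 stood 2.61 and 4.14 log2 units above the mean of those arrays. The spot in the row after Col25a1, in the column of Col25a1, is a copy of a probe for the ribosomal protein gene Rps3. It read 39800 on GSK-J4 replicate 3 and 29300 to 37800 at its 9 other copies there. On the other 5 arrays this copy read 38100 to 50100, whereas the Col25a1 spot read at most 79.2. The part of the neighbouring spots in the Col25a1 value was not tested.

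**Figure D3:**
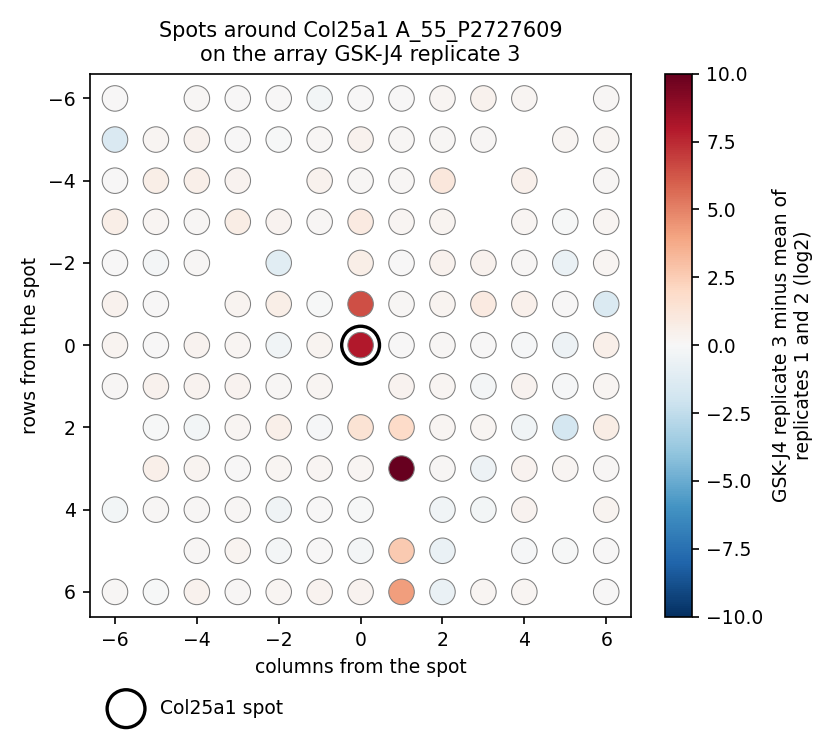
Spots within 6 rows and 6 columns of the Col25a1 spot A_55_P2727609 (ringed) on the array GSK-J4 replicate 3, coloured by log2 signal minus the mean of GSK-J4 replicates 1 and 2. Blank places hold control spots or probes printed several times. The spots of Col25a1, Osbpl1a and Zmiz1os1 are dark red in neighbouring columns. Pard3 (4.14) and Rap1a (2.61) are also raised in the column of Zmiz1os1, and most others are near 0.

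Gpr50 and Fndc3c1 were nowhere well above background, and no fold is given for them. The Gpr50 probe read 2.27, 3.65 and 3.53 log2 units on the vehicle arrays and 3.30, 4.16 and 2.08 on the GSK-J4 arrays, with arrays of both groups at either end. Its signal was flagged as significantly over background on all 6 arrays, but nowhere as well above it. Fndc3c1 carried neither flag on any array. None of the 3 genes of the melatonin receptor family on the array, which are Gpr50, Mtnr1a and Mtnr1b, had a kept probe. The Fndc3c1 probe read 1.87 to 1.93 on the vehicle arrays and 1.92 to 2.04 on the GSK-J4 arrays, at the lower limit of the scale. Among its relatives, Fndc3a fell by 0.64 log2 units (SE 0.07, adjusted p = 0.0145), with 8.03, 8.20 and 8.08 on the vehicle arrays and 7.44, 7.47 and 7.46 on the GSK-J4 arrays. Of kept probes within 1 base of its GC content of 35%, 14.4% were called lower, with a median difference of −0.13. The Fndc3a call was lost without vehicle replicates 1, 2 and 3 in turn (adjusted p 0.0588, 0.0659 and 0.0683). Fndc3b differed by −0.37 (SE 0.11, adjusted p = 0.0674), and Fndc3c2 has no probe under that name. Thus 2 of the 4 genes of this family had a kept probe, with a median difference of −0.51, and 0 rose and 1 fell. Over all kept probes 8.39% were called higher and 8.42% lower. Of the 5 tanycyte-gene probes that were not kept, the other three are the second Rax probe and the third Col23a1 probe given above, and the third Col25a1 probe, A_52_P669086. The last has a GC content of 18.3% and read 1.97 to 2.19 on the 6 arrays.

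The other transmembrane collagens did not pass the test either. All 4 genes of the list, which also holds Col23a1 and Col25a1, had a kept probe, with 0 calls by limma and a median difference of −0.08. At an unadjusted limma p of at most 0.05, 0 were higher and 1 was lower, Col25a1 itself. Over all kept probes 19.5% were higher and 17% lower at that threshold. Col13a1 differed by −0.19 log2 units (adjusted p = 0.644) and Col17a1 by 0.03 (adjusted p = 0.904).

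A further 17 genes known from tanycytes were examined, of which 16 had a kept probe. Pdzph1 rose, Fgf10 fell and the other 14 did not pass, with 8 positive and 8 negative differences and a median of 0.025, beside 0.02 over all kept probes and 8.39% and 8.42% of them called higher and lower. Pdzph1, which encodes a protein with PDZ and pleckstrin homology domains, read 6.47, 6.59 and 6.06 log2 units on the vehicle arrays and 7.93, 7.18 and 7.94 on the GSK-J4 arrays. The difference was 1.31 (SE 0.26, adjusted p = 0.0291), and the groups did not overlap. The call was lost without any of the 3 vehicle arrays (adjusted p 0.0807, 0.0821 and 0.0922 without replicates 1, 2 and 3), without GSK-J4 replicate 1 (0.0718) and without GSK-J4 replicate 3 (0.0587). Fgf10, a growth factor that marks tanycytes of the ventricle floor, read 9.46, 9.59 and 9.56 on the vehicle arrays and 8.84, 9.13 and 9.12 on the GSK-J4 arrays. The difference was −0.51 (SE 0.11, adjusted p = 0.0331), and it was −0.34 at an adjusted p of 0.0942 with the GC trend removed. Without replicates 1, 2 and 3 of vehicle its adjusted p was 0.0798, 0.111 and 0.105, and without GSK-J4 replicate 1 it was 0.0526. Nearly all calls among the kept probes were lost without a vehicle array, with at most 2 higher and 12 lower left.

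The genes of thyroid hormone handling, for which tanycytes are best known, gave the following values in whole tissue. The part of tanycytes in these signals cannot be told from that of other cells. Dio2, the deiodinase that makes active thyroid hormone, read 12.84, 12.92 and 13.10 log2 units on the vehicle arrays and 13.46, 13.23 and 13.43 on the GSK-J4 arrays. The groups did not overlap, and the difference of 0.42 (SE 0.11) just missed the threshold at an adjusted p of 0.051. It passed with scaling to the 75th percentile (0.65, adjusted p = 0.018), with normexp (0.41, adjusted p = 0.0348), among probes well above background on all 6 arrays (adjusted p = 0.0425) and with 1 probe per gene (adjusted p = 0.0491). Under the other 13 of 17 alternatives it did not pass, with adjusted p-values of 0.0515 to 0.193. Crym, which encodes a protein that binds thyroid hormone in the cytosol, read 15.10, 15.14 and 15.28 on the vehicle arrays and 14.97, 15.10 and 14.73 on the GSK-J4 arrays. The groups overlapped, and the difference of −0.24 (adjusted p = 0.205) had the opposite sign to that of Dio2. The thyroid hormone transporter gene Slco1c1 differed by −0.06 (adjusted p = 0.855), and it was highest on vehicle replicate 1, at 11.71 log2 units.

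**Figure D4:**
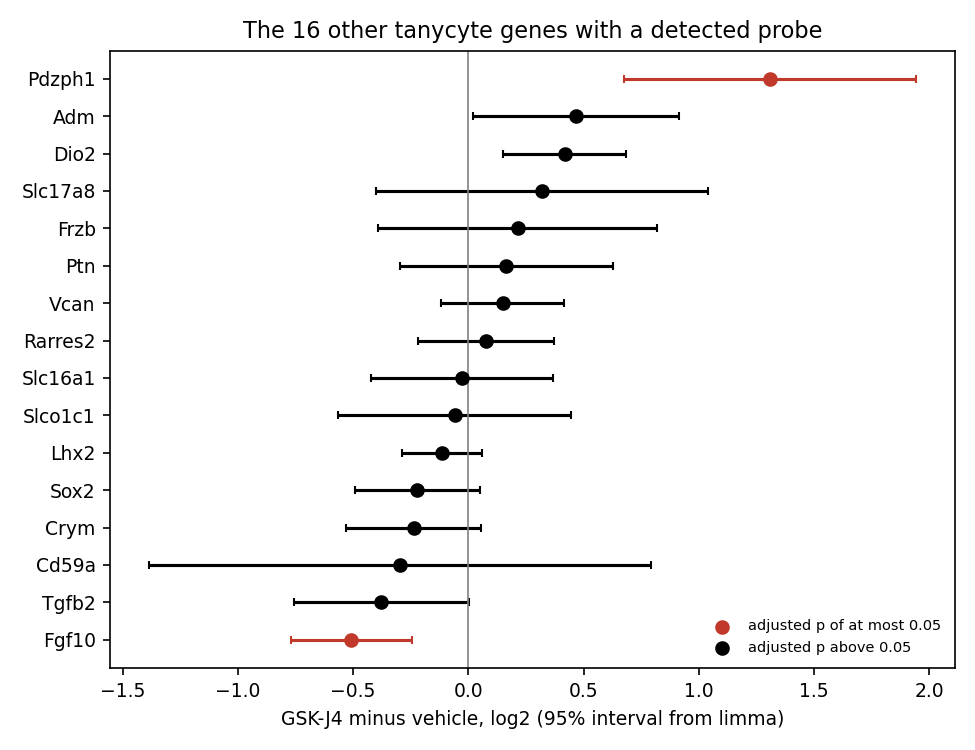
Difference between the group means (GSK-J4 minus vehicle, log2) of the 16 further tanycyte genes with a kept probe, 1 probe per gene, with 95% intervals from limma; red marks an adjusted p of at most 0.05. Pdzph1 (1.31) and Fgf10 (−0.51) are red, and the other 14 genes lie between −0.38 and 0.47.

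From array to array within the groups, the tanycyte-gene probes varied together to different degrees. The correlation of the deviations from the group means over the 6 arrays was positive for 14 of the 21 pairs of kept probes and negative for 7. It was 0.948 between Vim and the Col25a1 probe A_55_P2160750 and −0.948 between Nes and the Col23a1 probe A_52_P441036. It was 0.142 between Rax and Vim, −0.185 between Rax and Nes and −0.321 between Vim and Nes. Rax correlated at 0.487 and 0.594 with the Col23a1 probes A_52_P441036 and A_55_P2086978, and at 0.381 and 0.917 with the Col25a1 probes A_55_P2160750 and A_55_P2727609, the last of which is set by its value on GSK-J4 replicate 3. The 2 kept Col23a1 probes correlated at 0.520. These values rest on 6 arrays with the group means taken out and are descriptions. Of 95 genes on the lists, those most like Vim were Slc6a13 (0.950), Col25a1 (0.948) and Col3a1 (0.944), and those most like Col25a1 were Slc6a13 (0.956), Vim (0.948) and Col3a1 (0.940). Slc6a13 and Col3a1 are on the list of meningeal fibroblast genes. Those most like Rax were Ly6c1 (0.937) and Pecam1 (0.887), both genes of endothelium, and Pomc (0.866). The largest deviation of Rax was 0.488, on GSK-J4 replicate 3, so its correlations rest in large part on that array. Nes was most like Slc16a1 (0.919), Nr5a1 (0.766) and Lmnb2 (0.713), and Col23a1 most like Gjb6 (0.914), Agt (0.896) and Dcn (0.818).

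Markers of other cells that a hypothalamic sample can hold were read on the same arrays, since several of the genes above are not particular to tanycytes. The counts of calls here and in the next paragraph stand beside 8.39% called higher and 8.42% lower over all kept probes. Choroid plexus transcripts stood apart on vehicle replicate 1, where the summed signal of 7 kept genes of 8 was 112000, against 3193 and 3381 on the other vehicle arrays and 2935 to 12460 on the GSK-J4 arrays. Ttr, the transthyretin gene of the choroid plexus, read 16.15 log2 units on that array and 10.42 to 13.24 on the others, and Kl, the klotho gene, 12.06 and 8.94 to 9.25. The list had 0 calls and a median difference of −1.09. Ependymal genes, of cells that border on tanycytes, had 9 kept of 10, 0 calls and a median of −0.31, with summed signals of 3480 to 7062 in vehicle and 2388 to 4475 in GSK-J4. The highest of these was vehicle replicate 1 and the lowest GSK-J4 replicate 3, and Foxj1 differed by −0.60 (adjusted p = 0.164) and Ccdc153 by 0.10 (adjusted p = 0.893). Without both of these arrays, a choice made after the values were seen, limma called 0 of the 34444 probes, with 4978 higher and 5562 lower at an unadjusted p of at most 0.05. The Rax difference was then 0.81 (adjusted p = 0.0899), that of Vim −0.33 (0.255) and that of Col25a1 A_55_P2160750 −0.82 (0.177).

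All 11 astrocyte genes were kept, and 1 rose, Agt, by 0.69 log2 units (adjusted p = 0.0306), with a median of 0.12 and summed signals of 144000 to 154700 in vehicle and 157900 to 165300 in GSK-J4. With the GC trend removed Agt differed by 0.43 (adjusted p = 0.108), where 21% of kept probes within 1 base of its GC content of 55% were called higher, and its call was lost when any 1 of the 6 arrays was left out (adjusted p 0.056 to 0.103). With scaling to the 75th percentile 6 of the 11 genes were called higher. Gfap and Aqp4 did not pass, at −0.12 (adjusted p = 0.601) and −0.10 (adjusted p = 0.57). All 8 endothelial genes were kept with 0 calls and a median of −0.04. Their summed signal was 21660 to 23000 in vehicle, 22810 and 22960 in GSK-J4 replicates 1 and 2, and 30360 on GSK-J4 replicate 3, which was also the array with the highest Rax value. Cldn5 differed by 0.23 (adjusted p = 0.356) and Pecam1 by −0.10 (adjusted p = 0.54). All 7 mural genes were kept, and 1 fell, Rgs5, by 0.57 log2 units (adjusted p = 0.0186), a call lost without any 1 of the vehicle arrays (0.0658 to 0.0748), while Pdgfrb differed by 0.04 (adjusted p = 0.773). Of kept probes within 1 base of the GC content of Rgs5 (36.7%), 13.7% were called lower, with a median difference of −0.12. The median of the mural list was −0.18, with summed signals of 11700 to 13870 in vehicle and of 9925, 13430 and 4532 in GSK-J4. The low sum on GSK-J4 replicate 3 rests on Acta2, the smooth muscle actin gene, which read 8.45 log2 units there and 12.64 to 13.10 on the other arrays. Without Acta2, a choice made after the values were seen, the sums were 4189 to 5082 in vehicle and 3541, 4978 and 4184 in GSK-J4. On that array 77 of all kept probes lay over 4 log2 units below each of the other arrays, against 0 to 9 on the other 5. All 7 meningeal fibroblast genes were kept with 0 calls and a median of 0.16, with 9053 to 16570 in vehicle and 12510 to 15970 in GSK-J4. Col1a1 differed by 0.34 (adjusted p = 0.516) and Col1a2 by 0.29 (adjusted p = 0.523). None of the lists of choroid plexus, ependymal, endothelial and meningeal genes had a gene at an unadjusted p of at most 0.05 either (0 higher and 0 lower by limma). Over all kept probes 19.5% were higher and 17% lower at that threshold. The errors of some listed genes were wide, as for Ttr (SE 1.64), so these counts do not show that the groups were alike. The part of these cell types in the values of the tanycyte genes was not tested.

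**Figure D5:**
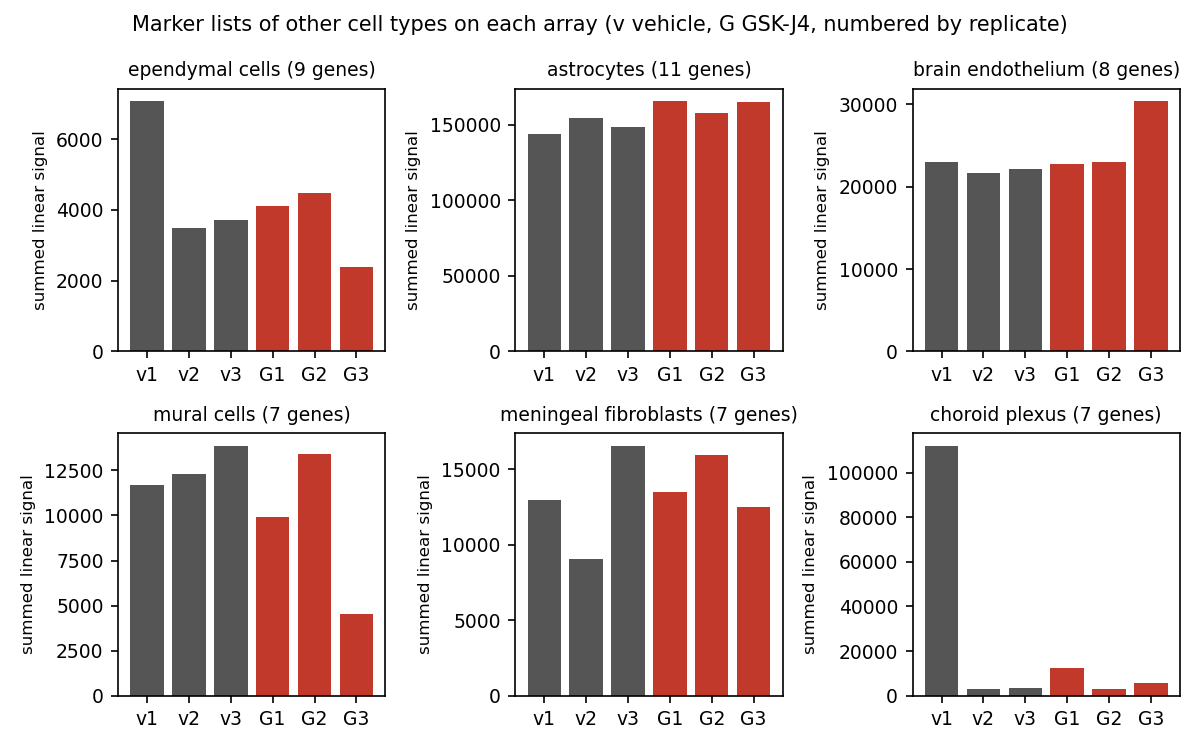
Summed linear signal of the kept marker genes of 6 other cell types on each array, vehicle in grey and GSK-J4 in red. The choroid plexus sum is 112000 on vehicle replicate 1, and on GSK-J4 replicate 3 the endothelial sum is highest, the ependymal sum lowest and the mural sum lowest through Acta2.

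Neuronal and pituitary genes were read on the same arrays, and whether they bear out the labelled tissue was not tested. Over all kept probes 8.39% were called higher and 8.42% lower. All 6 general neuronal genes were kept, with a median of −0.12, 0 higher and 1 lower, and summed signals of 161600 to 174000 in vehicle and 141800 to 176800 in GSK-J4. The gene called was Map2, at −0.33 (adjusted p = 0.043), which had the opposite sign, 0.10, with scaling to the 75th percentile. With the GC trend removed it was −0.16 at an adjusted p of 0.245, and the call was lost without any 1 of the vehicle arrays and without GSK-J4 replicate 1 or 2 (adjusted p 0.0927 to 0.14). Rbfox3 and Snap25 differed by −0.38 (adjusted p = 0.498) and −0.44 (adjusted p = 0.0854). Of 10 genes of hypothalamic neurons 6 were kept, and 2 rose, Pomc by 0.85 (adjusted p = 0.022) and Npy by 0.42 (adjusted p = 0.0267), with a median of 0.26. Of kept probes with the GC content of Pomc (55%) and Npy (50%), 21% and 17.2% were called higher. With the GC trend removed Npy differed by 0.19 (adjusted p = 0.156), while Pomc still passed. Both calls were lost without any 1 of the vehicle arrays and without GSK-J4 replicate 1, with adjusted p-values of 0.0513 to 0.0883. Pomc and Npy are peptide genes of arcuate neurons, but the part of these neurons in the 2 signals was not tested. Agrp differed by 0.10 (adjusted p = 0.806). It was kept through the vehicle arrays only and lay near the detection floor. Its values were 4.43 to 5.20 log2 units in vehicle and 4.44 to 5.08 in GSK-J4. Hcrt and Oxt were low as well, at 4.72 to 4.82 and 5.21 to 6.32 on the vehicle arrays. On the GSK-J4 arrays they read 5.10 to 5.98 and 5.30 to 6.44. Nkx2-1 was nowhere well above background, and Pmch, Avp and Trh had no kept probe either. Summed signals of the kept genes were 3288 to 3443 in vehicle and 4358 to 4967 in GSK-J4. These sums rest mainly on Npy, at 11.46 to 11.56 log2 units in vehicle and 11.89 to 12.04 in GSK-J4. Pomc, the next highest, read 7.79 to 8.03 and 8.60 to 9.05. Of 8 pituitary genes 1 was kept, Lhb, at 0.18 with 0 calls, and Cga and Tshb were not kept.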

How the data were processed

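Arrays were measured in 1 colour on 6 hypothalamic RNA samples. The authors extracted an intensity per spot with Feature Extraction 10.7.1.1 and deposited it with quality flags, beside log2 values quantile normalized between arrays in GeneSpring 14.8. The log2 values were used here, and the deposited intensity of each spot gave flags, raw signals and alternatives. Columns were assigned by sample name, and 0 were left unassigned. Probe coordinates are on mm9, and all 7 symbols are in the RefSeq gene list (GRCm38.p6), which was used for names only.

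A probe was kept where flagged well above background on each of the 3 arrays of either group. Groups were compared per probe with limma 3.58.1 (lmFit and eBayes, two-sided, no covariate) in R 4.3.3, with Benjamini-Hochberg adjustment over all 34444 kept probes. The fit was tested on simulated data. For the gene lists, the kept probe of highest mean signal stood for a gene. The design text gives a different mouse for each experiment. The p-values measure the spread between these samples, and the number of arrays limits the precision. Slide could not be a block, as each group lies on its own.

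The members and lists were chosen with earlier results of these data known. The genes named are all members, the called genes of each list (up to 4 in each direction) and its first 2 genes, and the 3 listed genes most like each member. Dio2, Crym, Acta2, Lhb, Hcrt, Oxt, other genes without a kept probe and the spots near Col25a1 are named besides. Alternatives were another scaling, background correction with an offset of 50, other filters, a GC correction (lowess, span 30%), the replicate block, the methods' t-test with unequal and with equal variances, the methods' thresholds, 1 probe per gene and leaving out each array. Summed signals are sums of 2 to the power of the log2 value. A gene of the tanycyte list is not reported here and was left out of its counts. No other experiment of the study was analysed here.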

Additional observations from a re-analysis of the deposited data

How the results depend on the processing

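None of the 7 kept tanycyte-gene probes changed sign under any of the alternatives run on it. The 1 tanycyte-gene probe called higher, that of Rax, became 0 with normexp, without a filter, with only probes well above background on all 6 arrays (Rax is not among them), with the replicate block, with the methods' t-test and with equal variances, and 0 to 2 when leaving out each array. At the methods' thresholds with limma, 2 were higher and 1 was lower. Of all kept probes, 2889 were called higher, against 5037 with scaling to the 75th percentile, 1793 without a filter, 1486 with the GC trend removed, 56 with the methods' t-test, 1831 with equal variances, and 1651 and 1139 at the methods' thresholds with limma and with the t-test. The 2899 called lower became 37 with the methods' t-test, 1484 with equal variances, 1723 with 1 probe per gene and 1799 at the methods' thresholds with the t-test. Leaving out each array gave 1 to 2076 higher and 4 to 2481 lower, and without a vehicle array at most 2 higher and 12 lower were called. Of the further tanycyte genes, the 1 called higher became 2 with scaling to the 75th percentile, with normexp, with the filter on all 6 arrays and with 1 probe per gene, and 0 without a filter and with both t-tests. The 1 called lower became 0 without a filter, with the GC trend removed, with both t-tests and at the methods' thresholds with either test. Leaving out each array gave 0 to 2 higher and 0 to 1 lower. Without vehicle replicate 1 and without GSK-J4 replicate 3 together, chosen after seeing the data, all of these counts were 0. Map2 went from −0.33 to 0.098 with scaling to the 75th percentile. The cause of these changes was not tested, except that fewer arrays or more probes enter some of the tests.

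With the replicate block, limma called 0 probes in either direction (5755 higher and 5314 lower at an unadjusted p of at most 0.05), among all probes, the tanycyte-gene probes (0 higher) and the further tanycyte genes (0 higher and 0 lower). Whether the replicate numbers pair the samples was not settled. Arrays of the same number correlated in their deviations at 0.007, 0.028 and 0.084, and arrays of different numbers at −0.1 to 0.095. With 3 arrays in each group these values cannot decide it. Signal over background limits the dimmest probes, among them Rax.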
